A study of Sus scrofa with 6 samples.

Results

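The genes described here are DNA repair genes of the pig, chosen by name: every gene ID of the deposited expression table whose symbol belongs to the FANC, BRCA, RAD50 to RAD54, XRCC, ERCC, MSH, MLH or PMS families, or is LIG1, LIG3, LIG4, EXO1, BLM or POLQ. The rule found 46 of the 31908 gene IDs in the table. RNA was sequenced from 6 libraries of IPEC-J2 cells, a non-transformed epithelial line from the jejunum of newborn piglets. The cells of 3 libraries (CON) were given PBS and those of the other 3 (CDCA) were given chenodeoxycholic acid, a primary bile acid, at 50 μM, both for 24 h. All libraries came from this 1 line, at 1 dose and 1 time. The labels number the libraries within a group but do not say whether they came from separate cultures, so the p-values measure only the spread between these samples. Expression is given as TPM, an abundance scaled by transcript length and library total, and the level of a gene is the sum over its listed transcripts. The table gives no read counts, and no counting error was computed for a value.

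Cells repair DNA by several routes. Homologous recombination copies an intact sister strand into a break and works mainly while the genome is being copied, whereas end joining seals broken ends directly. The Fanconi anemia pathway opens crosslinks between the DNA strands, mismatch repair corrects errors left by the replication machinery, base excision repair replaces single damaged bases, and nucleotide excision repair cuts out bulky lesions such as those made by ultraviolet light. Intestinal epithelium divides throughout life, and it is a tissue in which inherited defects of mismatch repair are known to lead to tumours.

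Of the 46 genes, 42 fell into lists of these 6 pathways, and 4 carry a family name without belonging to one of the lists (ERCC6L, ERCC6L2, RAD54L2 and FANCD2OS). FANCA, FANCG, ERCC4 and FANCD2OS were listed at 0 in all 6 libraries, and 33 of the 46 had more than 1 listed transcript. Genes were tested where the mean over all libraries reached 1 TPM, which 34 of the 46 did. For 6 of the 34 (EXO1, XRCC2, XRCC3, FANCM, POLQ and LIG1) the CDCA mean lay under 1 TPM and the CON mean above it, and no tested gene showed the opposite. Over all 46 genes, with no filter, the mean TPM was lower in CDCA for 31, higher for 11 and listed at 0 in both groups for 4.

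Of 12 tested genes of homologous recombination 9 fell in CDCA, and both subunits of the Fanconi anemia clamp fell. Only 2 nucleotide excision repair genes of the families were tested, too few to set against the other pathways, and neither passed. Of the 34 tested genes, 17 were lower in CDCA by limma on log2(TPM + 1) with a false discovery rate (FDR, Benjamini-Hochberg over all 8708 tested genes) under 0.05, and none was higher. Among all tested genes the corresponding shares were 23.9% lower and 29.3% higher. The 17 include EXO1, XRCC2, XRCC3, FANCM, POLQ and LIG1, whose group mean reached 1 TPM only in CON. A gene was called where its log2 fold change was also over 1 in size: 7 of the 34 were called lower, against 3.9% of all tested genes, and none was called higher, against 3.51%. EXO1 and POLQ were among the 7. The median log2 fold change of the 34 genes was -0.32 and their quartiles were -0.93 and -0.06, beside a median of 0.05 and quartiles of -0.28 and 0.36 over all tested genes. All 3 CDCA libraries lay below all 3 CON libraries for 19 of the 34 genes (27.8% of all tested genes) and above them for 1 (33.7%). Without a filter on low values, 13 of the 42 genes with any listed TPM had an FDR under 0.05 and a lower level in CDCA, and none had a higher one, against 9.11% lower and 11.5% higher of all genes in that fit. In RNA from whole cultures, fewer cells of one kind and less RNA per cell cannot be told apart.

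**Figure D1:**
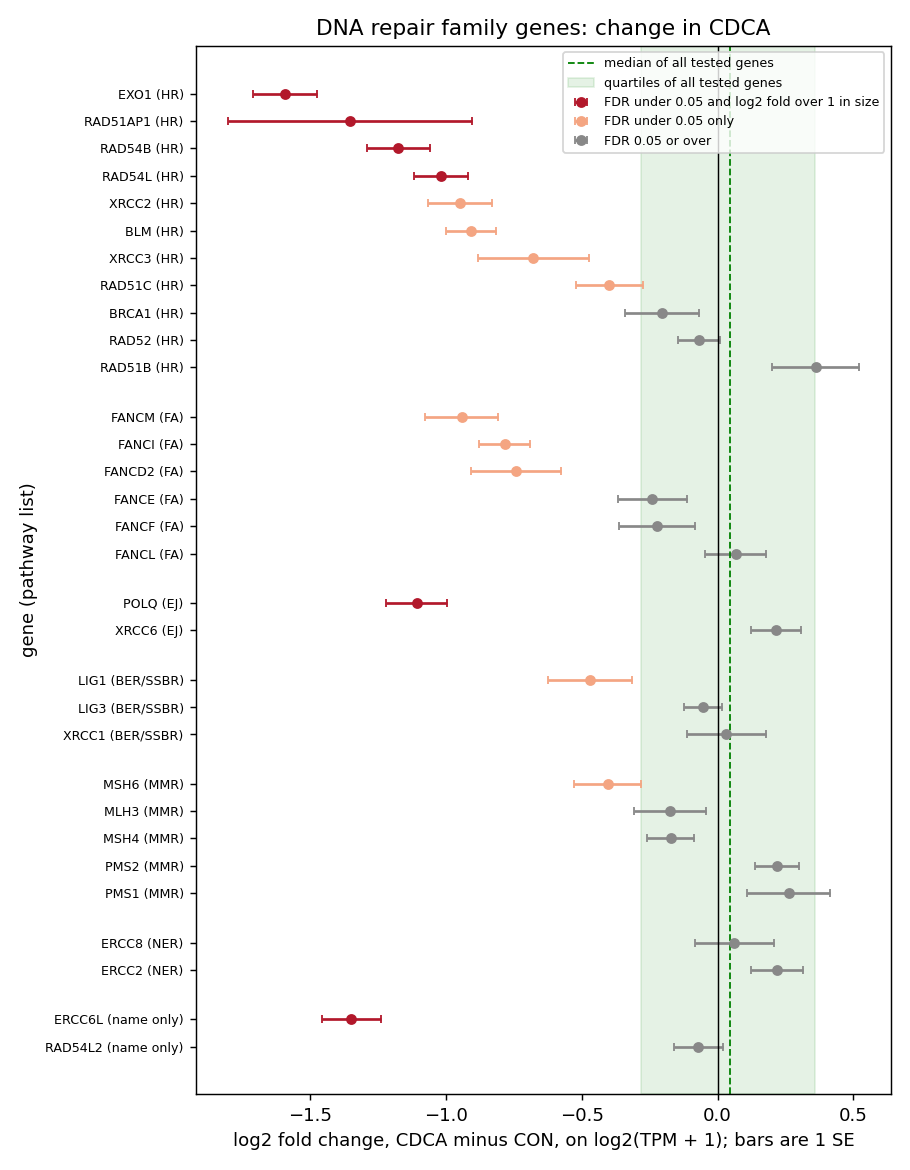
Log2 fold change (CDCA minus CON, on log2(TPM + 1)) of 31 tested DNA repair family genes, grouped by pathway list (HR, homologous recombination; FA, Fanconi anemia; EJ, end joining; BER/SSBR, base excision and single-strand break repair; MMR, mismatch repair; NER, nucleotide excision repair; name only, genes outside the lists). Points are limma estimates with bars of 1 SE, the dashed line and band are the median (0.05) and quartiles (-0.28 and 0.36) of all 8708 tested genes, and the 6 called genes drawn lie left of -1.

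Tested markers of dividing cells were lower in CDCA. Of a list of 10 such markers, 7 were listed by symbol, among them CCNB1, PLK1 and AURKB, and their summed level lay between 178 and 196 TPM in the CON libraries and between 64.7 and 70.3 TPM in the CDCA libraries. All 6 tested markers of that list had an FDR under 0.05 and were lower in CDCA, while TOP2A was listed near 0 in every library. The 3 endothelial markers summed to 1.81 to 2.37 TPM in CON and 1.29 to 1.58 TPM in CDCA. Of 7 epithelial markers 6 were listed, with KRT8 at 190 to 238 TPM and EPCAM at 118 to 173 TPM, although CDH1 stayed under 1 TPM. Their sum was 703 to 725 TPM in CON and 1231 to 1373 TPM in CDCA, but without CLDN4, which went from 225 to 806 TPM on average, it was 488 to 502 TPM in CON and 466 to 510 TPM in CDCA. Of the 5 tested, CLDN4, EPCAM and KRT18 were higher in CDCA with an FDR under 0.05 by limma, KRT7 was lower, and KRT8 did not pass. None of 5 fibroblast markers reached 1 TPM in any library. The 3 leukocyte markers summed to 0.41 to 1.32 TPM in CON and 4.85 to 5.97 TPM in CDCA, mostly from CD68, while PTPRC was listed at 0 in 5 libraries and at 0.01 TPM in 1. The 13 mRNAs encoded by mtDNA, which share the library total with all other genes, summed to 49478 to 55015 TPM in CON and 10529 to 12289 TPM in CDCA. The part of these markers and of the mtDNA-encoded mRNAs in the differences of the repair genes was not tested. Totals computed without the latter moved the median log2 fold change of all tested genes from 0.05 to -0.08 and that of the 34 repair genes to -0.43, and the shares of all tested genes with an FDR under 0.05 to 31.9% lower and 20.1% higher.

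Homologous recombination held the largest number of called genes. Of the 16 genes of its list, 13 were listed by symbol and 12 were tested. Of these, 9 had an FDR under 0.05 and were lower in CDCA, against 23.9% of all tested genes. Among the 9, 4 were called, against 3.9% of all tested genes, and the median log2 fold change of the 12 was -0.89. The summed level of the 13 genes was 43.6, 45.8 and 36.6 TPM in CON and 18.4, 20.8 and 20.6 TPM in CDCA, so the groups did not overlap. EXO1 (ENSSSCG00000010865), a nuclease that resects broken ends and also works in mismatch repair, was at 4.90, 4.99 and 4.32 TPM in CON and 0.81, 0.75 and 1.16 TPM in CDCA. Every CDCA library of EXO1 was below every CON library, and its log2 fold change of -1.59 (SE 0.12, limma FDR 7.7e-05) was the largest fall among the 34 tested genes.

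The motor proteins that help a broken strand open the target duplex fell as well. RAD54L (ENSSSCG00000003905) had CON libraries at 4.89, 4.94 and 4.5 TPM and CDCA libraries at 1.60, 2.12 and 1.86 TPM. RAD54B (ENSSSCG00000006101), its close relative, was at 6.31, 6.05 and 4.76 TPM in CON and 1.79, 2.07 and 2.01 TPM in CDCA. The table of Ensembl IDs gives the symbol RAD54B to another ID, and with its symbols 6 members were called lower and 16 were lower with an FDR under 0.05. Neither gene's groups overlapped, and both were called, with log2 fold changes of -1.02 (SE 0.10, limma FDR 0.00024) for RAD54L and -1.18 (SE 0.12, limma FDR 0.00024) for RAD54B. Without CON replicate 2 or without CDCA replicate 1, RAD54L was not called, and the 6 fits with 1 library removed gave log2 fold changes from -1.08 to -0.95.

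RAD51AP1 (ENSSSCG00000000722), a cofactor that stimulates strand pairing, had the widest spread of the called genes. Its CON libraries stood at 5.47, 6.93 and 1.63 TPM and its CDCA libraries at 0.95, 1.88 and 0.44 TPM. CON replicate 3 fell inside the CDCA range, so this is the one called gene whose groups overlapped. Its log2 fold change of -1.35 (SE 0.45, limma FDR 0.041) was not past the FDR threshold when CON replicate 1, CON replicate 2, CDCA replicate 1 or CDCA replicate 3 was left out, with an FDR of 0.10 to 0.12 in those 4 fits. Its FDR was 0.10 with no filter on low values and 0.052 without a trend in the limma fit, and without CON replicate 3 the log2 fold change was -1.84.

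XRCC2, XRCC3, RAD51C and RAD51B encode the paralogs that help the recombination filament assemble on DNA, and 3 of these 4 fell. XRCC2 was at 2.40, 2.66 and 2.02 TPM in CON and 0.80, 0.74 and 0.67 TPM in CDCA (log2 fold change -0.95, limma FDR 0.00071). XRCC3 was at 1, 1.72 and 1.79 TPM in CON and 0.27, 0.56 and 0.87 TPM in CDCA (log2 fold change -0.68, limma FDR 0.029). RAD51C was at 2.61, 2.53 and 2.20 TPM in CON and 1.5, 1.39 and 1.98 TPM in CDCA (log2 fold change -0.40, limma FDR 0.031). The groups did not overlap for any of these 3 genes, although neither XRCC3 nor RAD51C passed without a filter on low values (limma FDR 0.073 and 0.075). XRCC3 also did not pass without CON replicate 2 or 3 or CDCA replicate 1 or 2 (FDR up to 0.085), and RAD51C without CON replicate 1 or 2 or CDCA replicate 1 or 2 (FDR up to 0.086) or by its highest listed transcript (limma FDR 0.39). RAD51B had values of 2.02, 2.08 and 3.17 TPM in CON and 2.80, 3.66 and 3.64 TPM in CDCA; its groups overlapped and its log2 fold change of 0.36 had a limma FDR of 0.099, or 0.024 without CON replicate 3. Within a library, the ratio of RAD51B to RAD51C was 1.01 ± 0.37 (SD, n = 3) in CON and 2.11 ± 0.45 (SD, n = 3) in CDCA.

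BLM, a helicase that takes apart joined DNA molecules at the end of recombination, fell in all CDCA libraries to nearly the same level. It was at 6.29, 5.60 and 5.04 TPM in CON and 2.56, 2.50 and 2.53 TPM in CDCA (log2 fold change -0.91, SE 0.09, limma FDR 0.00030). BRCA1, a ubiquitin ligase subunit that promotes resection of broken ends, was weakly listed. It had 1.22, 1.71 and 1.23 TPM in CON and 1.19, 0.88 and 1.13 TPM in CDCA over 8 listed transcripts, with a log2 difference of -0.20 (SE 0.14, limma FDR 0.25). The CDCA libraries of BRCA1 lay below the CON libraries by a narrow gap, and its most abundant transcript had a ratio of CDCA to CON of 0.516 while the next had 2.05. RAD52, which anneals single strands, was at 3.13 to 3.20 TPM in CON and 2.94 to 3.00 TPM in CDCA, a log2 fold change of -0.07 (limma FDR 0.48), or 0.27 by its highest listed transcript (limma FDR 0.27). RAD51AP2 was listed at 0.01 TPM or less in every library.

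**Figure D2:**
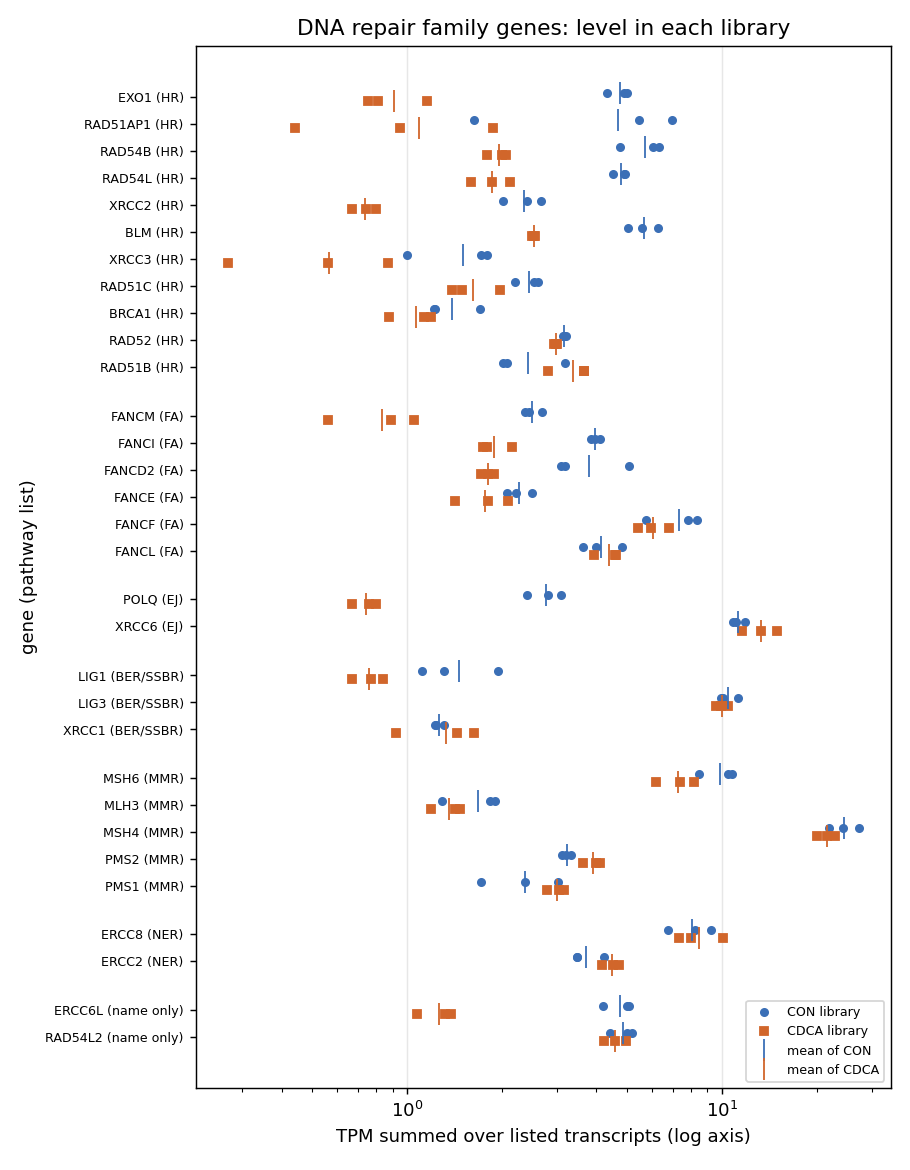
TPM per library of 31 tested genes on a log axis, with circles for the 3 CON libraries, squares for the 3 CDCA libraries and vertical ticks for the group means; pathway abbreviations in brackets are HR, homologous recombination; FA, Fanconi anemia; EJ, end joining; BER/SSBR, base excision and single-strand break repair; MMR, mismatch repair; NER, nucleotide excision repair. MSH4 is listed highest in CON, and most homologous recombination genes lie under 7 TPM with CDCA to the left of CON.

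In the Fanconi anemia list, the members that fell were the clamp subunits and the motor protein FANCM. Of 10 genes, 9 were listed by symbol and 6 were tested. Of these, 3 had an FDR under 0.05 and were lower, against 23.9% of all tested genes. None was called, against 3.9% called lower of all tested genes, and the median log2 fold change was -0.49. FANCI and FANCD2 form the clamp that is marked with ubiquitin at a crosslink. FANCI was at 3.95, 4.12 and 3.84 TPM in CON and 2.15, 1.74 and 1.79 TPM in CDCA (log2 fold change -0.78, SE 0.09, limma FDR 0.00061). FANCD2 was at 5.07, 3.18 and 3.08 TPM in CON and 1.81, 1.72 and 1.89 TPM in CDCA (log2 fold change -0.74, SE 0.17, limma FDR 0.0090). Neither overlapped between the groups, and the ratios of the mean TPM were 0.477 for FANCI and 0.478 for FANCD2. FANCM, which recognises stalled forks and recruits the core complex, was at 2.68, 2.38 and 2.44 TPM in CON and 0.89, 0.56 and 1.05 TPM in CDCA (log2 fold change -0.94, SE 0.13, limma FDR 0.0013).

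None of the 3 tested core complex genes passed the test. FANCL, the ubiquitin ligase subunit, was at 4.82, 4 and 3.63 TPM in CON and 4.62, 3.92 and 4.59 TPM in CDCA; its log2 fold change was 0.07 (limma FDR 0.65), and -0.06 when totals were computed without the mtDNA-encoded mRNAs. FANCE was at 2.27 ± 0.21 TPM in CON and 1.78 ± 0.34 TPM in CDCA (limma FDR 0.15) and FANCF at 7.30 ± 1.4 and 6.06 ± 0.68 TPM (limma FDR 0.23, or 0.034 without CON replicate 3; SD, n = 3 for each). Both overlapped between the groups. FANCB was under 1 TPM, at 0.35 to 0.54 TPM in CON and 0.01 to 0.18 TPM in CDCA, and in the fit without a filter on low values it had an FDR of 0.021 by limma.

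End joining had few testable members. Of its 5 genes, 4 were listed by symbol, and only POLQ and XRCC6 reached 1 TPM. POLQ (ENSSSCG00000036613), the polymerase that joins ends through short matching stretches, was at 3.09, 2.80 and 2.41 TPM in CON and 0.80, 0.76 and 0.67 TPM in CDCA and was called lower (log2 fold change -1.11, SE 0.11, limma FDR 0.00030). The groups were far apart and the 6 fits with 1 library removed gave values from -1.18 to -1.05. XRCC6, a Ku subunit that binds broken ends for the classical route, was at 11.07, 11.86 and 10.87 TPM in CON and 13.29, 14.95 and 11.64 TPM in CDCA, with overlapping groups and a log2 difference of 0.21 (SE 0.09, limma FDR 0.094, or 0.028 without CDCA replicate 3). Its Ku partner XRCC5 was listed at 0.37 to 1.01 TPM in CON and 0.75 to 1.04 TPM in CDCA, and LIG4 at no more than 0.25 TPM, so neither was tested.

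Of the 3 genes of base excision and single-strand break repair, all tested, 1 was lower with an FDR under 0.05, beside 23.9% of all tested genes. LIG1, the ligase that joins newly made strands, was at 1.31, 1.95 and 1.12 TPM in CON and 0.67, 0.77 and 0.84 TPM in CDCA (log2 fold change -0.47, SE 0.16, limma FDR 0.040). The groups of LIG1 did not overlap, but its FDR was over 0.05 when any library other than CON replicate 3 was left out, up to 0.093, and 0.098 by limma with no filter on low values. LIG3 and its scaffold XRCC1 had log2 fold changes of -0.05 (SE 0.07) and 0.03 (SE 0.15), with a limma FDR of 0.55 for LIG3 and 0.87 for XRCC1. LIG3 was at 10.07, 9.93 and 11.30 TPM in CON and 9.96, 10.48 and 9.56 TPM in CDCA. XRCC1 was at 1.23 to 1.31 TPM in CON and spread from 0.92 to 1.63 TPM in CDCA. The sum for LIG3 joined transcripts with opposite differences: the most abundant one averaged 7.54 TPM in CON and 5.78 TPM in CDCA, and passed the test on its own (limma FDR 0.025), while the next averaged 1.62 and 2.74 TPM.

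Of the 9 genes of mismatch repair, 8 were listed by symbol and 7 were tested; 2 had an FDR under 0.05 and were lower, 1 of them called, a share near the 23.9% of all tested genes, and the median log2 fold change was -0.18. When totals were computed without the mtDNA-encoded mRNAs, 4 of the 7 were lower, beside 31.9% of all genes tested in that fit, and with median ratio scaling 3 were. MSH6, a sensor of single-base mismatches, was at 10.78, 10.47 and 8.47 TPM in CON and 8.15, 7.37 and 6.20 TPM in CDCA. The groups did not overlap, and the log2 fold change was -0.40 (SE 0.12, limma FDR 0.029), but the FDR was over 0.05 without CON replicate 1 or 2 or CDCA replicate 2 or 3 (up to 0.093) and 0.070 by limma with no filter on low values. MSH3, a sensor of small loops, was under 1 TPM at 0.55 to 0.86 TPM in CON and 0.33 to 0.51 TPM in CDCA.

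None of PMS2, PMS1 and MLH3, which act after a mismatch is found, passed the test. PMS2, which nicks the strand to be corrected, was the tested family gene whose CDCA libraries were all above the CON libraries, at 3.11, 3.32 and 3.21 TPM in CON and 4.10, 3.98 and 3.63 TPM in CDCA (log2 fold change 0.22, limma FDR 0.059, or 0.027 without a trend in the fit). PMS1 and MLH3 had log2 fold changes of 0.26 and -0.18, with overlapping groups and a limma FDR of 0.19 and 0.31. MSH4, a gene known from meiosis, was at 27.28, 21.98 and 24.25 TPM in CON and 22.92, 20.14 and 21.63 TPM in CDCA, nearly all of it (98.3%) from 1 of its 5 listed transcripts, and its log2 fold change was -0.17 (limma FDR 0.14, or 0.027 when totals were computed without the mtDNA-encoded mRNAs).

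Nucleotide excision repair had 5 genes listed by symbol of 7, of which only ERCC2 and ERCC8 were tested. ERCC2, a helicase of the transcription factor TFIIH that opens DNA around a lesion, was at 3.46, 3.47 and 4.22 TPM in CON and 4.73, 4.53 and 4.18 TPM in CDCA. Its groups overlapped, and the log2 fold change was 0.22 (SE 0.10, limma FDR 0.097, or 0.043 without CON replicate 3). ERCC8, which acts where RNA polymerase has stalled, was at 8.20, 9.27 and 6.73 TPM in CON and 7.34, 10.11 and 7.96 TPM in CDCA, with overlapping groups and a log2 fold change of 0.06 (limma FDR 0.74) that was -0.08 when totals were computed without the mtDNA-encoded mRNAs. ERCC3 was listed at 0.10 to 0.43 TPM and ERCC6 at 0 in 5 of the 6 libraries.

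Among the genes that share only a family name, ERCC6L (ENSSSCG00000021834) was called lower. It encodes a translocase of the ultrafine DNA bridges seen in dividing cells, and was at 5.06, 5.01 and 4.20 TPM in CON and 1.32, 1.38 and 1.08 TPM in CDCA (log2 fold change -1.35, SE 0.11, limma FDR 0.00010). RAD54L2, a chromatin remodeller, had a log2 fold change of -0.07 (limma FDR 0.54). ERCC6L2 was under the limit for testing, at 0, 0.58 and 0.38 TPM in CON and 0.84, 1.23 and 1.54 TPM in CDCA, and its groups did not overlap; in the fit without a filter its log2 fold change was 0.75 (limma FDR 0.056). With a minimum of 0.5 TPM it was higher with an FDR of 0.023 by limma, and with the listed TPM rescaled to 1000000 in each library it was called higher (log2 fold change 1.30, limma FDR 0.032).

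Ratios between partner genes were set side by side because they are read within 1 library. The ratios were chosen after the values were seen, and p-values are from two-sided exact permutation tests adjusted over the 7 ratios computed, of which 4 are described. For RAD51B to RAD51C the groups did not overlap (exact permutation p = 0.10, the smallest that 3 libraries against 3 can give, and 0.14 adjusted). These are sums over transcripts. The second RAD51B transcript was at 1.18 TPM in CDCA replicate 2 and at 0.03 TPM or less in every other library. The mean of RAD51C in CDCA was 0.81 of that in CON for its most abundant transcript and 0.44 for the other. BARD1, which pairs with BRCA1 in the ubiquitin ligase, was 7.24 ± 1.3 times BRCA1 in CON and 3.61 ± 0.48 times in CDCA (SD, n = 3 for each), again without overlap and with an exact permutation p of 0.10 (0.14 adjusted). The BRCA1 sum joins transcripts with opposite differences, with ratios of CDCA to CON of 0.516 for the most abundant and 2.05 for the next. Ratios by single transcript were not tested for either pair. For FANCI to FANCD2 the ratio was 1.11 ± 0.29 in CON and 1.05 ± 0.12 in CDCA, and for LIG3 to XRCC1 it was 8.30 ± 0.82 in CON and 7.99 ± 2.6 in CDCA (SD, n = 3), with an exact permutation p of 0.80 for both.

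**Figure D3:**
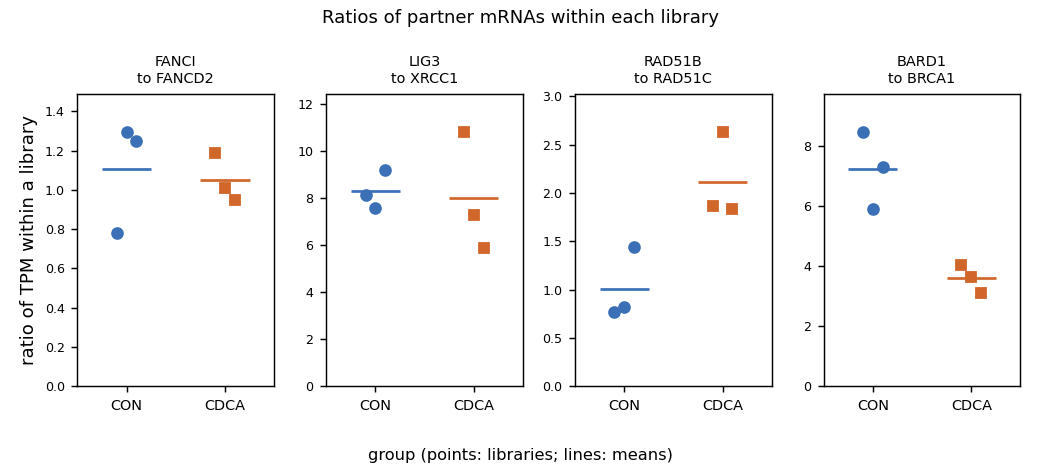
Ratio of TPM between 4 pairs of partner genes within each library, with circles for CON, squares for CDCA and lines for the group means; each axis starts at 0. The CDCA libraries lie above the CON libraries for RAD51B to RAD51C, below them for BARD1 to BRCA1, and within their range for FANCI to FANCD2. For LIG3 to XRCC1, 1 CDCA library lies above the CON libraries and 2 below.

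Other genes of the same pathways, outside the named families, were counted by the same test, for which 23.9% of all tested genes were lower and 29.3% higher with an FDR under 0.05. In homologous recombination, 19 of 24 were tested: 9 had an FDR under 0.05 and were lower, 3 of them called, and 1 was higher. BARD1 fell from 9.83 ± 0.72 to 3.85 ± 0.86 TPM, FIGNL1, an ATPase of recombination, from 5.07 ± 0.72 to 1.54 ± 0.48 TPM, and MND1, a recombination cofactor, from 14.98 ± 2.42 to 6.79 ± 0.74 TPM (SD, n = 3 for each). In the Fanconi anemia list, 9 of 15 were tested, and 4 were lower with an FDR under 0.05 and none higher. UBE2T, the conjugating enzyme that works with FANCL, was called lower, from 56.8 ± 3.4 to 26.9 ± 1.6 TPM (log2 fold change -1.05, limma FDR 3.9e-05). EME1, a subunit of a structure-specific nuclease, was called too, from 9.94 ± 0.32 to 3.15 ± 0.31 TPM (log2 fold change -1.40, limma FDR 2.9e-05).

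Of 20 other genes of base excision repair, 15 were tested. At an FDR under 0.05, 3 were lower and 5 higher, near the shares of all tested genes. When totals were computed without the mtDNA-encoded mRNAs, 6 were lower and 5 higher, beside 31.9% lower and 20.1% higher of all genes tested in that fit. Of the DNA glycosylases, the enzymes that remove a damaged or wrong base, some were lower and some higher. The 2 called genes were of this kind: UNG, which removes uracil, fell from 7.13 ± 0.69 to 1.79 ± 0.46 TPM (log2 fold change -1.55, limma FDR 0.00019), and NEIL3, which removes oxidised bases, from 9.14 ± 0.58 to 2.68 ± 0.15 TPM (log2 fold change -1.46, limma FDR 2.3e-05; SD, n = 3 for each). The glycosylases SMUG1, MBD4 and MPG were higher (log2 fold changes of 0.61, 0.42 and 0.65). With PARP3 and POLB they made up the 5 higher genes, all named after their values were seen, with log2 fold changes of 0.36 for POLB to 0.97 for PARP3. In end joining, 10 of 16 were tested, 2 were lower and 1 higher, and MAD2L2 was called lower, from 2.32 ± 0.57 to 0.537 ± 0.22 TPM (log2 fold change -1.11, limma FDR 0.0019).

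In nucleotide excision repair more of the other genes were higher than lower. Of 20 other genes, 17 were tested: 8 were higher and 2 lower with an FDR under 0.05, none was called, and the median log2 fold change was 0.24. With totals computed without the mtDNA-encoded mRNAs, 5 were higher and 2 lower, beside 20.1% higher and 31.9% lower of all genes tested in that fit. XPA, a damage-binding scaffold named after its values were seen, was at 3.22 ± 0.33 TPM in CON and 4.67 ± 0.13 TPM in CDCA (SD, n = 3; log2 fold change 0.43, limma FDR 0.0062). The difference between this list and the others was not tested, and in the main fit 29.3% of all tested genes were higher with an FDR under 0.05.

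**Figure D4:**
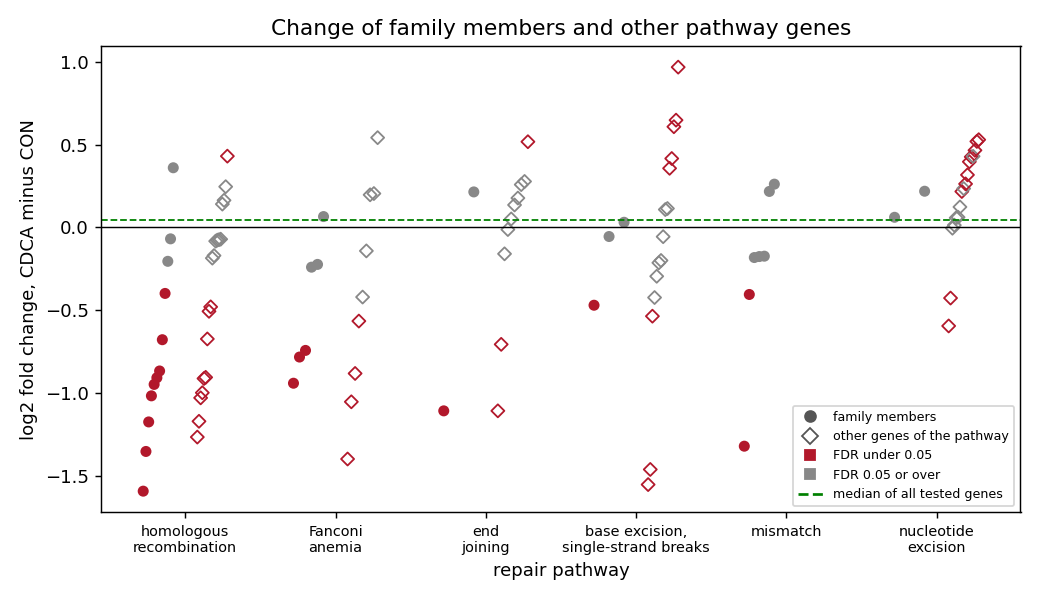
Log2 fold change (CDCA minus CON) of the tested family members (filled circles) and the other tested genes of each pathway (open diamonds), with red for an FDR under 0.05 by limma and a dashed line at the median of all tested genes (0.05). Homologous recombination and Fanconi anemia genes with an FDR under 0.05 lie below 0 except for 1 other gene of homologous recombination, while 8 of 17 other nucleotide excision repair genes are red above 0.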

How the data were processed

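RNA-seq of 6 IPEC-J2 libraries (3 CON, 3 CDCA; groups from the sample titles) was used. Abundance came from RSEM, and the authors deposited it as TPM, rounded to 2 decimals, for 63041 listed transcripts. The submitters' processing notes also name Bowtie 0.12.2 and the mouse build mm10, with no role given, while the gene IDs are Ensembl pig IDs. No coordinates are printed for this reason. Each library's listed values added up to 351770 to 366073 rather than 1000000, so a gene's sum can miss transcripts.

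TPM were summed per gene ID. Members were matched by the deposited symbol (135 transcripts, 46 IDs); other genes used the deposited symbol, then a table of Ensembl IDs and symbols. The 8708 genes that averaged 1 TPM or more were compared in R 4.3.3 with limma 3.58.1 (eBayes with a trend) on log2(TPM + 1), without a replicate block, with Benjamini-Hochberg adjustment; a fold change on this scale understates that of low genes. The study's own comparison used edgeR, which needs counts and was not used on these TPM. The limma step was tried on simulated data in which only genes well above the filter were changed, by more than the threshold for a call. It therefore did not cover genes near the filter or smaller changes. Ratios were compared by exact permutation with scipy 1.17.1.

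Named genes were all called members, the 3 largest falls and rises of each pathway list, genes that define a pathway, and called genes of the other lists; the remaining members are given to account for all 46, and other genes are said to be named after their values were seen. Of the tested members, 3 are not reported here by name or drawn singly, although counts and medians include them. The members, lists and rules were chosen with earlier results of these data known. Alternatives covered the pseudocount, filters, library totals, transcripts, the replicate block, the trend and each library left out.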

Additional observations from a re-analysis of the deposited data

How the results depend on the processing

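Of the 7 genes called lower, the 7 remained called with a pseudocount of 0.1 TPM (13 called), totals without the mtDNA-encoded mRNAs (10), the listed TPM rescaled to 1000000 (12) and the replicate block (7); BLM, FANCI, FANCM, XRCC2 and XRCC3 were among the genes added in 1 or more of these. Leaving out 1 library at a time, 5 to 8 were called lower, and 2 to 5 of homologous recombination, the lowest counts coming without CON replicate 2 or CDCA replicate 1, when RAD51AP1 and RAD54L were lost. With 0.1 TPM or the rescaled TPM, 8 homologous recombination genes were called, and of the Fanconi anemia genes 2 and 1, with 1 also without the mtDNA totals and 0 to 1 with a library left out. The rescaled TPM gave 1 gene called higher, ERCC6L2, and 1 gene was higher with an FDR under 0.05 there and with a minimum of 0.5 TPM (ERCC6L2) and without the trend (PMS2), and 0 to 2 with a library left out (RAD51B and ERCC2 without CON replicate 3, XRCC6 without CDCA replicate 3). The median of the members was -0.21 with no filter and -0.43 without the mtDNA totals. The Fanconi anemia median was -0.67 with 0.1 TPM and -0.24 with the highest listed transcript. That of homologous recombination was -1.28 with 0.1 TPM, -0.999 without the mtDNA totals and -1.06 with the rescaled TPM, and that of mismatch repair was -0.32 without the mtDNA totals. That scaling moved the median of all tested genes from 0.05 to -0.08. Signs turned for 4 tested genes, none past the threshold: by the highest listed transcript to 0.27 for RAD52, without the mtDNA totals to -0.0757 for ERCC8, -0.0582 for FANCL and -0.0554 for XRCC1, while leaving out a library gave -0.0590 to 0.156 for ERCC8, -0.00745 to 0.158 for FANCL and -0.0622 to 0.165 for XRCC1. The cause was not tested.

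The replicate numbers did not pair the libraries: deviations from the group means of same-numbered libraries correlated at -0.04, -0.09 and -0.05, and 0 of 6 libraries correlated best with its own number. With the block, LIG1 and RAD51C had a limma FDR of 0.067 and 0.076, and no other tested member changed its side of 0.05. The table gives no reads per gene, so values under 1 TPM are printed without a counting error.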

Other observations

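The deposited table holds 5 gene IDs without a symbol whose description names a gene of these families. RAD50, a strand-tethering subunit of the complex that first binds a break, was at 6.13, 4.68 and 4.89 TPM in CON and 5.16, 4.29 and 5.99 TPM in CDCA, with a log2 fold change of -0.02 (limma FDR 0.90). The ID described as ERCC5, a nuclease of nucleotide excision repair, was at 11.32, 10 and 9.9 TPM in CON and 11.30, 10.96 and 11.92 TPM in CDCA, with a log2 fold change of 0.12 (limma FDR 0.19). BRCA2 was listed at 0.04 to 0.23 TPM in CON and 0 to 0.06 TPM in CDCA, and MSH5 at 0.10 TPM or less. FANCC, a core complex subunit, was at 0.52, 0.47 and 0.53 TPM in CON and 0.24, 0.33 and 0.22 TPM in CDCA, and in the fit without a filter on low values it had a limma FDR of 0.047. With these IDs added, 7 genes were still called lower and none higher. The ID named RAD54B in the deposited table has no symbol in the table of Ensembl IDs, which gives that symbol to an ID deposited as FSBP, listed at 0.11 TPM or less.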
